A study of Mus musculus with 6 samples.

Results

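The heat-shock chaperones of the cytosol and of the mitochondrial matrix were described through 10 genes, Hspa1a, Hspa1b, Hspa8, Hsph1, Hsp90aa1, Hsp90ab1, Dnaja1, Dnajb1, Hspe1 and Hspd1. They were chosen by name from the 55951 genes of the deposited expression table, and each name had 1 row. Expression was measured by polyA-selected RNA-seq in CD8+ effector memory T cells from the spleen of C57BL/6 mice that carry the S100A4-EGFP allele, a fluorescent reporter for the calcium-binding protein S100A4. All mice had asthma induced with ovalbumin, and the labels give the sorted cells no further treatment. Cells inside a CD3+ CD8+ CD4- CD44+ gate, gated further for effector memory, were separated by flow cytometry into EGFP- cells (here S100A4-negative, 3 libraries) and EGFP+ cells (S100A4-positive, 3 libraries). The labels do not say how the reporter allele was built, how old the mice were, or whether the 3 libraries of a group came from separate animals, so the tests measure the spread between libraries, which may be technical.

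HSP70 proteins hold exposed hydrophobic stretches of unfolded proteins in an ATP-driven cycle. J-domain proteins bring them their clients and start ATP hydrolysis, and HSP110 proteins exchange the nucleotide so that the client is released. HSP90 takes over partly folded kinases and steroid receptors, and the HSP60 and HSP10 chaperonin folds proteins imported into mitochondria. When misfolded proteins accumulate, heat shock factor 1 binds inverted repeats of the pentamer nGAAn, the heat shock element, upstream of these genes. In T cells HSP90 is known for keeping the kinase LCK stable, and HSP70 genes are also induced when tissue is dissociated.

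The upstream sequences are shown because the pair of stress-induced HSP70 genes has nearly the same one, and because the chaperonin pair shares a single element. RefSeq's table for GRCm38.p6 held 7 of the 10 genes (not Hspa8, Hsp90aa1 and Hsp90ab1), and the 250 bases before each listed transcription start were searched for 2 neighbouring pentamers, GAANNTTC or TTCNNGAA. Each of these motifs is its own reverse complement, so that a search of 1 strand covers both, and the 2 overlap where 3 pentamers follow each other. At least 1 match was found before 6 of the 7 genes (Hspa1a, Hspa1b, Hsph1, Dnaja1, Hspe1 and Hspd1), and before 14.5% of the 27025 genes in the table. A match describes letters and was not tested for binding. Capitals mark the matches in all sequences.

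The stress-induced genes Hspa1a and Hspa1b are single-exon neighbours on the minus strand of chromosome 17. Their 250 upstream bases, read 5′ to 3′ toward the start, are chr17:34972157-34972406 for Hspa1a and chr17:34959239-34959488 for Hspa1b. They differed at 3 of 250 positions (98.8% identical), and each held GAAGATTC at positions -104 to -97.
Hspa1a: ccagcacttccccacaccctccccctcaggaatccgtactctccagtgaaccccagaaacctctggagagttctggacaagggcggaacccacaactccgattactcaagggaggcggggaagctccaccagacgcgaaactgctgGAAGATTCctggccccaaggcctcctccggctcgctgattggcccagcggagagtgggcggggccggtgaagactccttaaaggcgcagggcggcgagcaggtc
Hspa1b: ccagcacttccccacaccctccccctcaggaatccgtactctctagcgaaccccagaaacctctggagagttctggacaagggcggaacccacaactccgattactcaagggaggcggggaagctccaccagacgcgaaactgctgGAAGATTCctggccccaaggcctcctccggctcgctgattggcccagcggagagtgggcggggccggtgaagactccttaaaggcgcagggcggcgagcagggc

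Hspe1 and Hspd1, which encode HSP10 and HSP60, lie head to head on chromosome 1, and their annotated ends overlap by 112 bases. The same 30 bases, chr1:55088053-55088082, lie upstream of the listed starts of both genes, at -95 to -66 of Hspe1 on the plus strand and at -150 to -121 of Hspd1 on the minus strand. They hold 3 overlapping matches, that is, 4 pentamers in a row. A run of at least 3 pentamers, in which 2 matches overlap by a pentamer, was found before 0.514% of the genes in the table.
Hspe1: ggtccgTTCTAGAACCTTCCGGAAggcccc
Hspd1: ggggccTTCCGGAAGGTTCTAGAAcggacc

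Hsph1 and Dnaja1, the 2 genes with the largest falls among the 10, each had 1 match. It lay at -124 to -117 of Dnaja1 (chr4:40722333-40722362, plus strand) and at -33 to -26 of the nearest listed start of Hsph1 (chr5:149636351-149636380, minus strand).
Dnaja1: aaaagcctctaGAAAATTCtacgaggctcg
Hsph1: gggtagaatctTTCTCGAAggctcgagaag

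The libraries held 14925260 to 18660188 reads assigned to genes. The reads were recovered from the deposited FPKM (fragments per kilobase of transcript, scaled to library size) and the authors' mean read counts per group. The make-up of the groups differed in cell type markers: all 13 T cell markers were lower in S100A4-positive libraries (summed FPKM 2622 to 3134 in the S100A4-negative and 405 to 591 in the S100A4-positive libraries), with the T cell receptor constant gene Trac at 418 ± 66.2 against 69.5 ± 9.75 FPKM (SD, n = 3). All 19 monocyte and macrophage markers were higher (summed FPKM 728 to 1025 against 9584 to 10621), with the lysozyme gene Lyz2 at 311 ± 60.9 against 3039 ± 169 FPKM, and 7 of 9 dendritic cell markers were higher (48.9 to 89.5 against 362 to 516). Lower were 9 of 9 B cell markers (7163 to 12560 against 1516 to 1574), 6 of 7 plasma cell markers with 1 higher (1198 to 2670 against 318 to 616), 8 of 9 neutrophil markers (3316 to 4996 against 420 to 1760), 3 of 3 tested natural killer cell markers (49.0 to 105 against 14.9 to 40.5) and the 1 tested platelet marker (11.8 to 19.97 against 4.81 to 6.51). Of the markers called, 1 of macrophages, 2 of dendritic cells and 1 of natural killer cells passed the filter (a mean of at least 1 FPKM over the 6 libraries) only through the group where they were high. These counts are as deposited, beside 19.0% of all tested genes higher and 43.4% lower. After the median-of-ratios rescaling described below, 5 of 9 B cell, 4 of 7 plasma cell and 1 of 3 natural killer cell markers were lower. That compares with 24.8% of all tested genes. The other marker lists kept their counts after rescaling. Among all these markers only the platelet gene Gp1bb was at 0 in every library. Of 4 tested erythroid markers none passed in limma, at an unadjusted p under 0.05 or in voom (48.1 to 253 against 48.0 to 228). Markers of B cells, neutrophils and macrophages were thus present in libraries labelled as sorted CD8+ T cells. The part of these cell types in the chaperone differences below was not tested, and in bulk samples fewer cells of a type cannot be told apart from less RNA per cell.

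The scale of the comparison mattered. With FPKM as deposited, 19.0% of the 13241 tested genes were higher and 43.4% lower in S100A4-positive libraries (limma on log2(FPKM + 1), adjusted p under 0.05), and the median gene differed by -0.36 on the log2 scale. After median-of-ratios rescaling, which divides each library by the median ratio of its genes to their geometric mean over libraries, the median moved up by 0.33, and 27.3% were higher and 24.8% lower. With quantile normalization, which gives all libraries one distribution, it moved up by 0.20, with 22.9% higher and 31.6% lower. Of all calls 30.4% were higher as deposited, 52.4% after rescaling and 42.0% after quantile normalization. Genes called under all 3 scalings made up 18.9% (higher) and 24.8% (lower).

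All 10 chaperone genes passed the filter, a mean of at least 1 FPKM over the 6 libraries, and the lowest, Hspa1a, did so only through its level in S100A4-positive libraries. As deposited, 2 were higher (Hspa1a and Hspa1b, beside 19.0% of all tested genes), 6 were lower (Hsph1, Dnaja1, Dnajb1, Hsp90ab1, Hspd1 and Hspe1, beside 43.4%) and 2 did not pass (Hspa8 and Hsp90aa1). The median of the 10 differences was -0.62, beside -0.36 for all tested genes. Under all 3 scalings 2 stayed higher, Hspa1a and Hspa1b, and 3 stayed lower, Hsph1, Dnaja1 and Dnajb1. Thus the inducible HSP70 copies differed in the opposite direction from the HSP110 and J-domain genes that work with HSP70. Beside 18.9% and 24.8% of all tested genes, 2 of 10 and 3 of 10 do not set the chaperones apart. Without overlap between the groups were 2 genes above and 6 below, beside 20.9% and 49.1% of all tested genes.

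**Figure D1:**
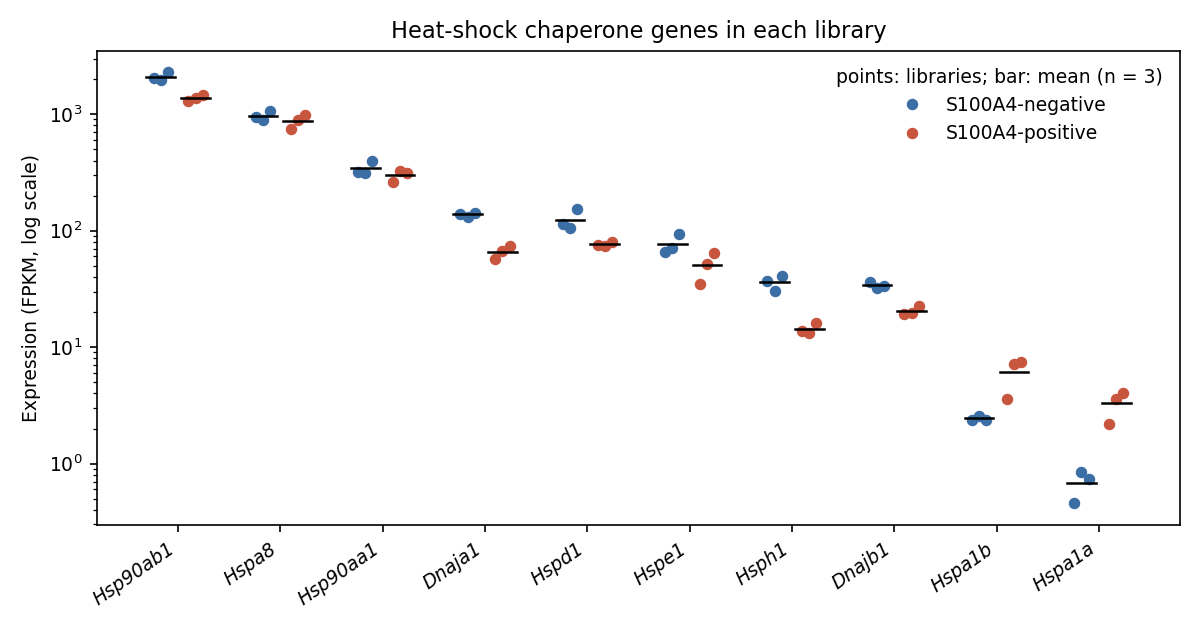
Expression of the 10 chaperone genes in each library (vertical axis, FPKM, log scale), with genes ordered by their mean in S100A4-negative libraries; points are libraries and bars are means of 3. Hspa1a and Hspa1b, lowest in level, sit higher in the S100A4-positive libraries, 6 genes sit lower without overlap, and Hspa8 and Hsp90aa1 overlap.

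Hspa1a encodes the stress-induced HSP70 of the cytosol (ENSMUSG00000091971, chr17:34969190-34972156, minus strand of GRCm38). It measured 0.457, 0.853 and 0.741 FPKM in S100A4-negative replicates 1 to 3 and 2.21, 3.59 and 4.04 FPKM in S100A4-positive replicates 1 to 3. Every S100A4-positive library was above every S100A4-negative one, and the first S100A4-positive library was the lowest of its group. The means were 0.683 ± 0.204 and 3.28 ± 0.955 FPKM (SD, n = 3), a ratio of 4.80. On the log2(FPKM + 1) scale the difference was 1.33 (SE 0.22, limma adjusted p 0.00184). Hspa1a passed the filter only through S100A4-positive libraries, so this difference is given as a description. Without the filter the limma adjusted p was 0.00816. Adding 1 shrinks the fold of a gene this low: with a pseudocount of 0.1 it was 2.102, and in voom, which models the reads, 2.24. These values rest on 23 to 45 reads per S100A4-negative and 111 to 208 reads per S100A4-positive library.

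Hspa1b, the second copy (ENSMUSG00000090877, chr17:34956436-34959238, minus strand), lies 9951 bases from Hspa1a and encodes nearly the same protein. It measured 2.37, 2.57 and 2.39 FPKM in S100A4-negative and 3.58, 7.12 and 7.46 FPKM in S100A4-positive libraries. The groups did not overlap, and again the first S100A4-positive library lay below the other 2. The means of 2.44 ± 0.108 and 6.06 ± 2.15 FPKM differed by 0.98 (SE 0.25, limma adjusted p 0.0114). Of the 100-base windows of the Hspa1a transcript 47.1% also occur in Hspa1b, and 49.9% of those of Hspa1b occur in Hspa1a, so the split of reads between the copies is uncertain. Summed to 1 gene, the copies differed by 1.28 (SE 0.25, limma adjusted p 0.00337). A further gene on the other strand, Gm20481, covers 19.0% of the exon bases of Hspa1a and is listed at 0 in every library.

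Hspa8 encodes the constitutive HSP70 of the cytosol, HSC70 (ENSMUSG00000015656, chr9:40800984-40810087, plus strand). Its level was 954, 890 and 1058 FPKM in S100A4-negative and 745, 892 and 977 FPKM in S100A4-positive libraries, from 15527 to 24274 reads. The groups overlapped. Means of 967 ± 84.7 and 871 ± 117 FPKM differed by -0.16 (SE 0.16, limma adjusted p 0.424). The sign depended on the scale: the difference was 0.22 after median-of-ratios rescaling (adjusted p 0.298). Other genes, 7 of 8 of them pseudogenes, share 32.1% of the windows of its longest transcript, and the closest, Gm15459, stood at 1.43 to 1.97 FPKM.

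Hsph1 encodes HSP110, a nucleotide exchange factor of HSP70 that also helps to dissolve aggregates (ENSMUSG00000029657, chr5:149614287-149636376, minus strand). It had the largest fall of the 10 genes, from 37.1, 30.4 and 40.8 FPKM in S100A4-negative to 13.7, 13.2 and 16.1 FPKM in S100A4-positive libraries. The highest S100A4-positive library was well below the lowest S100A4-negative one. Means of 36.1 ± 5.27 and 14.4 ± 1.53 FPKM differed by -1.27 (SE 0.15, limma adjusted p 0.000406), and by -0.91 after median-of-ratios rescaling (adjusted p 0.00102). None of its 100-base windows occurs in another gene.

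Dnaja1 and Dnajb1 encode J-domain proteins that deliver clients to cytosolic HSP70; DNAJB1 is HSP40, the stress-inducible one, and DNAJA1 is a farnesylated type I protein. Dnaja1 (ENSMUSG00000028410, chr4:40722150-40737149, plus strand) measured 138, 132 and 143 FPKM in S100A4-negative and 57.1, 67.1 and 73.4 FPKM in S100A4-positive libraries. For Dnaja1 the spread within each group was small beside the gap between them. Means of 138 ± 5.35 and 65.9 ± 8.20 FPKM differed by -1.06 (SE 0.12, limma adjusted p 0.000424), and by -0.68 after median-of-ratios rescaling (adjusted p 0.00360). Of its exon bases 10.8% overlap other genes, among them Smu1 on the other strand. As deposited Smu1 did not pass (70.7 ± 4.69 and 70.1 ± 5.42 FPKM), and after median-of-ratios rescaling it was higher (0.36, limma adjusted p 0.0347). Of its windows 24.0% also occur in other genes, among them the pseudogene Gm15542 at 0.786 to 2.38 FPKM. Gm15542 was lower as deposited (-0.62, limma adjusted p 0.0192) and lost the call after rescaling (adjusted p 0.0887).

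Dnajb1 (ENSMUSG00000005483, chr8:83608193-83612653, plus strand) measured 36.5, 32.3 and 33.5 FPKM in S100A4-negative and 19.1, 19.4 and 22.7 FPKM in S100A4-positive libraries. The groups did not overlap. Means of 34.1 ± 2.18 and 20.4 ± 1.98 FPKM differed by -0.72 (SE 0.12, limma adjusted p 0.00193). After median-of-ratios rescaling the difference was -0.35 (adjusted p 0.0362). Hspa1b and Dnajb1, both classic stress-induced genes, thus went in opposite directions in these libraries. Hspa1a went the same way as Hspa1b, as a description only, since it passed the filter only through S100A4-positive libraries.

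HSP90 is encoded by Hsp90aa1, the stress-inducible form, and Hsp90ab1, the constitutive form. Hsp90ab1 (ENSMUSG00000023944, chr17:45567775-45573271, minus strand) had the highest FPKM of the 10 genes, 2038, 1954 and 2287 in S100A4-negative and 1291, 1378 and 1459 in S100A4-positive libraries. The groups did not overlap. Means of 2093 ± 173 and 1376 ± 84.2 FPKM differed by -0.60 (SE 0.16, limma adjusted p 0.0134). The call was lost after median-of-ratios rescaling (-0.23, adjusted p 0.299) and quantile normalization (-0.49, adjusted p 0.0658), without the filter (adjusted p 0.0736), in voom with median-of-ratios size factors (0.161), and when S100A4-negative replicate 3 (adjusted p 0.0562) or S100A4-positive replicate 2 (adjusted p 0.0522) was left out.

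Hsp90aa1 (ENSMUSG00000021270, chr12:110690605-110702728, minus strand) measured 322, 315 and 395 FPKM in S100A4-negative and 264, 323 and 315 FPKM in S100A4-positive libraries. The groups overlapped. Means of 344 ± 44.7 and 301 ± 32.2 FPKM differed by -0.19 (SE 0.15, limma adjusted p 0.290), and the sign turned after median-of-ratios rescaling (0.19, adjusted p 0.316). Copies elsewhere share 47.5% of the windows of its longest transcript, 39.6% with the pseudogene Gm12346, which stood at 0.314 to 0.773 FPKM.

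The mitochondrial chaperonin consists of a barrel of HSP60, encoded by Hspd1, and a lid of HSP10, encoded by Hspe1. Hspd1 (ENSMUSG00000025980, chr1:55077835-55088243, minus strand) measured 115, 105 and 152 FPKM in S100A4-negative and 75.9, 73.1 and 79.9 FPKM in S100A4-positive libraries. The groups did not overlap, and the S100A4-negative ones were the more spread. Means of 124 ± 24.9 and 76.3 ± 3.41 FPKM differed by -0.68 (SE 0.15, limma adjusted p 0.00711), and by -0.30 after median-of-ratios rescaling, where the call was lost (adjusted p 0.0880). A pseudogene, Hspd1-ps3, shares 25.8% of its windows and stood at 0.0343 to 0.410 FPKM.

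Hspe1 (ENSMUSG00000073676, chr1:55088132-55091307, plus strand) measured 65.7, 71.4 and 93.4 FPKM in S100A4-negative and 35.04, 51.2 and 64.4 FPKM in S100A4-positive libraries. The groups nearly touched, since the highest S100A4-positive library lay just under the lowest S100A4-negative one. Means of 76.9 ± 14.6 and 50.2 ± 14.7 FPKM differed by -0.63 (SE 0.24, limma adjusted p 0.0487). This call had the highest adjusted p of the 8, and it was lost after median-of-ratios rescaling (-0.26, adjusted p 0.375) and quantile normalization (-0.53, adjusted p 0.1004). It was also lost with a pseudocount of 0.1 (adjusted p 0.0507), without the filter (0.0986), with no trend (0.0585), with array weights (-0.43, 0.0969) and in voom with median-of-ratios size factors (0.360). Leaving out 1 library lost it for each library but S100A4-positive replicate 3, with adjusted p from 0.0544 to 0.152 (without S100A4-negative replicates 1, 2 or 3, or S100A4-positive replicates 1 or 2).

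**Figure D2:**
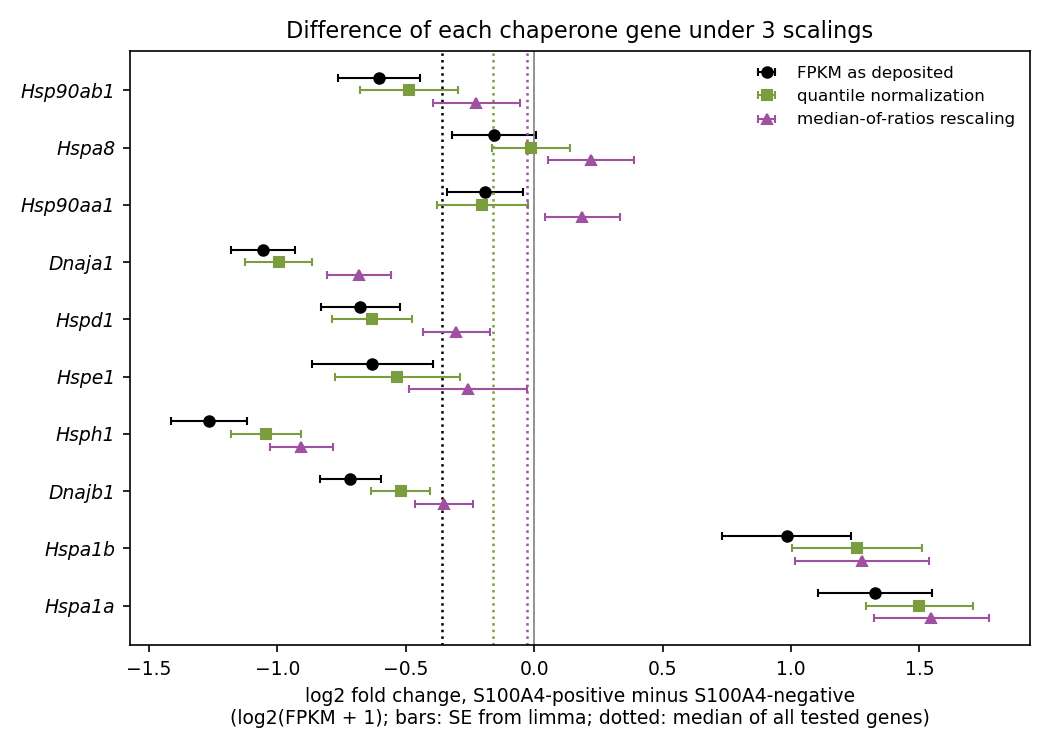
Log2 fold change of each chaperone gene, S100A4-positive minus S100A4-negative (horizontal axis, log2(FPKM + 1)), as deposited (circles), after quantile normalization (squares) and after median-of-ratios rescaling (triangles); bars are limma standard errors and dotted lines the median of all tested genes under each scaling. Hspa1a and Hspa1b lie right of 0 under all 3 scalings and Hsph1, Dnaja1 and Dnajb1 left of it, while Hspa8 and Hsp90aa1 change side.

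The levels spanned a wide range. FPKM here divides by the mean length of a gene's annotated transcripts, which are short for several of these genes (881 bases for Hsp90ab1 and 1230 for Hspa8). With reads divided by the longest annotated transcript instead, the mean levels per kilobase in S100A4-negative libraries were, in order, 732 for Hsp90ab1, 377 for Hspa8, 124 for Hsp90aa1, 69.3 for Hspe1, 65.1 for Hspd1, 44.3 for Dnaja1, 33.3 for Dnajb1, 14.8 for Hsph1, 2.44 for Hspa1b and 0.683 for Hspa1a. The neighbours Hspe1 and Hspd1 lie closer than the spread between libraries. In S100A4-positive libraries they were 481, 339, 109, 45.3, 40.0, 21.2, 19.9, 5.87, 6.06 and 3.28 for the same genes. Only Hsph1 and Hspa1b changed places, by less than the spread between libraries, and Dnaja1 and Dnajb1 came within their spread of each other.

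Together the 10 genes took 0.399%, 0.379% and 0.450% of all reads assigned to genes in S100A4-negative and 0.270%, 0.307% and 0.328% in S100A4-positive libraries. The groups did not overlap, with means of 0.409% ± 0.0370 and 0.302% ± 0.0296 (SD, n = 3). An exact permutation test, two-sided, gave p 0.1, and 3 against 3 can give no smaller one. Most of these reads came from Hsp90ab1 and Hspa8. The share was not rescaled between libraries. With FPKM as deposited, the median tested gene differed by -0.36 on the log2 scale, and 49.1% of tested genes were lower without overlap. The lower share thus does not set the chaperones apart from other genes. Within the groups the genes tended to be high in the same library. S100A4-negative replicate 3 was the highest of its group for 7 of 10 genes (44.8% of all tested genes) and S100A4-positive replicate 3 for 9 of 10 (35.3%), while S100A4-positive replicate 1 was the lowest for 8 of 10 (32.1%).

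Ratios between partner genes within a library do not change when the library is divided by a factor, as in median-of-ratios rescaling. Quantile normalization can change them, and they were not computed after it. In all, 4 ratios were compared. Their level depends on the length that reads are divided by, here FPKM's mean transcript length, while the difference between groups does not. Inducible over constitutive HSP70, the sum of Hspa1a and Hspa1b over Hspa8, was 0.00297, 0.00385 and 0.00296 in S100A4-negative and 0.00777, 0.0120 and 0.0118 in S100A4-positive libraries. As counted, the inducible copies were a minor part of cytosolic HSP70 mRNA in every library, yet the lowest S100A4-positive ratio was above the highest S100A4-negative one. Other genes share 56.5% of the windows of Hspa1a, 49.9% of those of Hspa1b and 32.1% of those of Hspa8. How reads from shared windows were counted is not known, so the level of this ratio is uncertain. With reads per longest transcript the ratio was 2.57 times as large, 0.00760 to 0.00988 in S100A4-negative and 0.0199 to 0.0308 in S100A4-positive libraries, and the log2 difference was again 1.67. On the log2 scale the ratio was -8.27 ± 0.217 and -6.60 ± 0.355 (SD, n = 3), a difference of 1.67 (exact two-sided permutation p 0.1, adjusted over the 4 ratios 0.133).

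Inducible over constitutive HSP90, Hsp90aa1 over Hsp90ab1, was 0.158, 0.161 and 0.173 in S100A4-negative and 0.205, 0.235 and 0.216 in S100A4-positive libraries, again without overlap and with a log2 difference of 0.41 (exact permutation p 0.1, adjusted 0.133). Dnajb1 over Dnaja1 was 0.265, 0.245 and 0.234 against 0.334, 0.290 and 0.309, also without overlap, with a log2 difference of 0.33 (exact permutation p 0.1, adjusted 0.133). In these 3 pairs the gene known as stress-inducible made up a larger part of the pair in S100A4-positive libraries. For HSP90 and the J-domain pair this gene was not itself higher. Hsp90aa1 did not pass (-0.19, beside -0.60 for Hsp90ab1), and Dnajb1 was lower (-0.72, beside -1.06 for Dnaja1). Hspd1 over Hspe1, the chaperonin barrel over its lid, was 1.75, 1.47 and 1.63 against 2.17, 1.43 and 1.24. Here the groups overlapped, with a log2 difference of -0.043 (exact permutation p 0.9, adjusted 0.9), and the direction rested on single libraries: it ranged from -0.28 without S100A4-positive replicate 1 to 0.12 without S100A4-positive replicate 3. With reads per longest transcript Hspd1 over Hspe1 was 1.02, 0.856 and 0.949 against 1.26, 0.831 and 0.722, so which gene was the higher depends on the length used. On that scale Dnajb1 over Dnaja1 was 0.711 to 0.805 in S100A4-negative and 0.879 to 1.01 in S100A4-positive libraries. No adjusted p of a ratio could fall below 0.1 with 3 libraries a group.

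**Figure D3:**
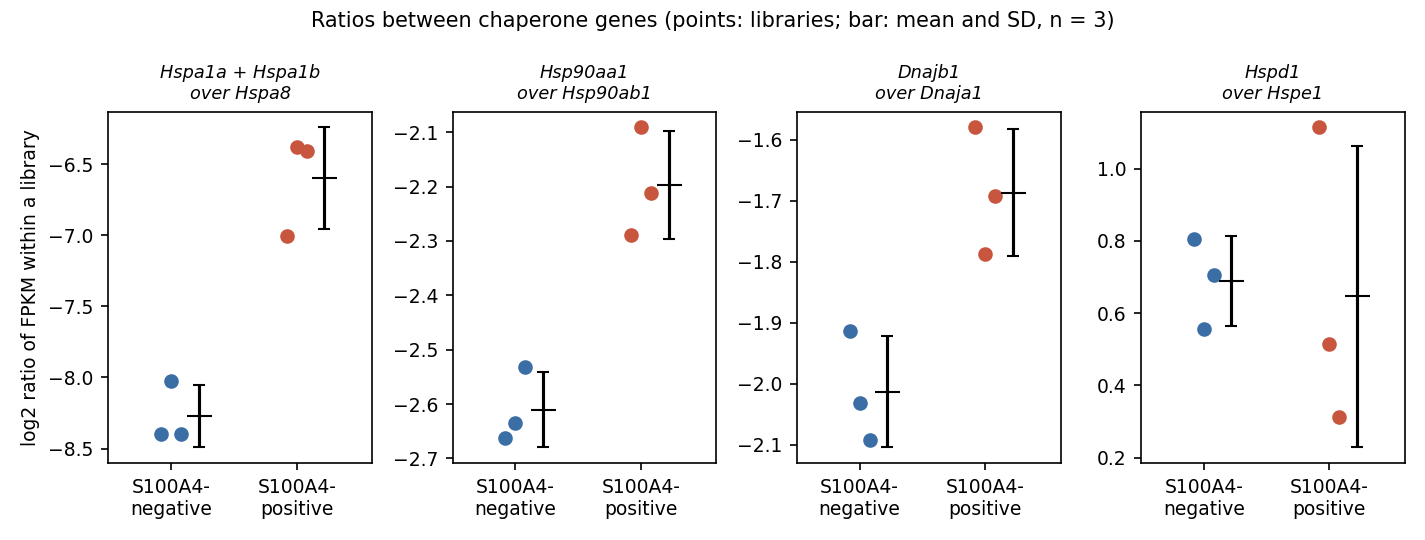
Log2 ratio of FPKM between partner genes in each library (vertical axes, each with its own range), by group; points are libraries, and the bars beside them are the mean and SD of 3. In the first 3 panels all S100A4-positive libraries lie above all S100A4-negative ones, and for Hspd1 over Hspe1 they overlap.

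The regulators and partners of these genes were taken from 8 lists with 92 genes of the cytosolic and mitochondrial chaperone system, of which 83 were tested. As deposited 5 were higher and 42 lower (beside 19.0% and 43.4% of all tested genes), and 36 did not pass. The median difference was -0.38, beside -0.36 for all tested genes. After median-of-ratios rescaling 12 were higher and 16 lower (beside 27.3% and 24.8% of all tested genes). Under all 3 scalings 5 were higher (6.02%, beside 18.9% of all tested genes), namely Hsf2, Bag3, Dnajb4, Hspb6 and Htra2, and 16 were lower (19.3%, beside 24.8%). The 5 higher genes as deposited became 3 without S100A4-negative replicate 1 or without S100A4-positive replicate 2, since Bag3 and Hspb6 lost their calls. Hsf4, Hspa12a and Bag2 averaged under 1 FPKM in S100A4-positive libraries and passed the filter only through the S100A4-negative ones, and their differences are given as a description. Without the filter the adjusted p was 0.0524, 0.0269 and 0.00528.

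Of 4 tested heat shock factors and regulators 1 was higher (beside 19.0% of all tested genes) and 2 were lower (beside 43.4%). The regulator Hsbp1, which encodes an HSF1-binding protein and is named outside the rule after its values were seen, was 38.3 ± 0.981 and 38.4 ± 3.40 FPKM and did not pass (limma adjusted p 0.999), and it was higher after median-of-ratios rescaling (0.37, adjusted p 0.0157). Hsf1, the main activator of chaperone genes under stress, was 53.8, 49.99 and 49.1 FPKM in S100A4-negative and 32.5, 25.6 and 32.2 FPKM in S100A4-positive libraries. Its means of 51.0 ± 2.50 and 30.1 ± 3.89 FPKM differed by -0.75 (limma adjusted p 0.00215). Hsf2, a related factor that forms mixed trimers with HSF1, went the other way, from 6.56, 4.25 and 5.34 FPKM to 9.33, 13.8 and 14.1 FPKM (difference 1.07, limma adjusted p 0.00380). The groups overlapped for neither gene. Hsf4 was 1.67 ± 0.345 and 0.807 ± 0.0530 FPKM (-0.56, limma adjusted p 0.0237), a call lost after median-of-ratios rescaling (adjusted p 0.113), quantile normalization (0.111), without the filter (0.0524), in voom with median-of-ratios size factors (0.109), and when S100A4-negative replicate 1 (0.0777), S100A4-positive replicate 2 (0.0616) or S100A4-positive replicate 3 (0.0607) was left out.

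Among other HSP70 and HSP110 genes 3 of 5 tested were lower (beside 43.4% of all tested genes), with a median of -0.78, and the same 3 were lower under all 3 scalings (beside 24.8%). They were Hspa14, a ribosome-associated HSP70 (60.7 ± 4.87 to 33.5 ± 0.964 FPKM, limma adjusted p 0.000666), Hspa4l, an HSP110 relative of Hsph1 (7.49 ± 0.932 to 3.94 ± 0.501 FPKM, adjusted p 0.00432), and Hspa12a, a distant HSP70 that passed the filter only through S100A4-negative libraries (2.26 ± 0.708 to 0.690 ± 0.233 FPKM, adjusted p 0.00900). Of the 9 cochaperones of HSP70, 1 was higher and 3 were lower (beside 19.0% and 43.4% of all tested genes), with a median of -0.21. BAG proteins bind the ATPase domain of HSP70 and speed nucleotide exchange. Bag4 fell (7.87 ± 0.757 to 2.74 ± 0.309 FPKM, -1.25), Bag2 was 2.87 ± 0.0854 and 0.754 ± 0.226 FPKM (-1.15), and Bag3, itself known as a stress-induced gene, was 12.5 ± 3.27 and 20.1 ± 5.11 FPKM (0.65, limma adjusted p 0.0424). The call of Bag3 was lost without S100A4-negative replicates 1 (adjusted p 0.0796) or 3 (0.129), without S100A4-positive replicates 1 (0.108) or 2 (0.0624), without the filter (0.0854) and with array weights (0.0609). Hspbp1, an exchange factor of HSP70, was 41.2 ± 6.07 and 30.98 ± 3.30 FPKM (adjusted p 0.0453), and its difference shrank to -0.028 after median-of-ratios rescaling (adjusted p 0.865). Its call was also lost when S100A4-negative replicate 2 (adjusted p 0.0969) or 3 (0.148) or S100A4-positive replicate 1 (0.103) or 2 (0.108) was left out, and without the filter (0.0741), after quantile normalization (0.177), with no trend (0.0596), with array weights (0.0567) and in voom with library totals (0.0541) or median-of-ratios size factors (0.865).

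Of 15 tested HSP90 cochaperones 9 were lower (beside 43.4% of all tested genes), with a median of -0.68, and 7 of the 9 were lower under all 3 scalings (beside 24.8%). The largest fall was that of Unc45a, a cochaperone for myosin folding, which measured 89.3, 101 and 88.6 FPKM in S100A4-negative and 36.8, 37.2 and 39.4 FPKM in S100A4-positive libraries (-1.27, limma adjusted p 0.000111). The groups were far apart beside their spread. Cdc37l1, a relative of the kinase-loading cochaperone CDC37, fell from 29.7 ± 2.77 to 13.1 ± 1.92 FPKM (-1.13), and Fkbp5, an immunophilin of steroid receptor complexes, from 31.5 ± 3.19 to 16.6 ± 2.001 FPKM (-0.88). Tomm34, which links HSP70 and HSP90, fell from 71.0 ± 7.81 to 38.1 ± 2.73 FPKM (-0.88). None of the list was higher as deposited, in limma, at an unadjusted p under 0.05 or in voom with library totals, and 1 was higher after median-of-ratios rescaling.

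Of 16 other J-domain genes 1 was higher and 7 were lower (beside 19.0% and 43.4% of all tested genes), with a median of -0.31, and after median-of-ratios rescaling 3 were higher and 3 lower (beside 27.3% and 24.8%). Dnaja4, of the same type as Dnaja1, had the largest fall in the wider system, from 10.3 ± 0.498 to 2.09 ± 0.0999 FPKM (-1.88, limma adjusted p 5.81e-05). Dnajc9, which is also a histone chaperone, measured 67.3, 73.7 and 82.1 FPKM in S100A4-negative and 17.3, 20.2 and 28.0 FPKM in S100A4-positive libraries (-1.74, limma adjusted p 0.000262), with a wide gap between the groups. Dnajc7 fell from 86.8 ± 7.29 to 50.6 ± 6.80 FPKM (-0.77). Dnajb4, a relative of Dnajb1, rose from 12.4 ± 2.32 to 23.8 ± 5.82 FPKM (0.87, limma adjusted p 0.0109). Of 8 small heat-shock proteins only 3 reached the filter, Hspb2 and Hspb8 were at 0 in all libraries, and Hspb6 was 1.80 ± 0.471 and 3.004 ± 0.274 FPKM (0.53, adjusted p 0.0375). The call of Hspb6 was lost without the filter (adjusted p 0.103), in the fit with a replicate block (0.0518) and without S100A4-negative replicates 1 (0.0592) or 2 (0.108) or S100A4-positive replicates 2 (0.0977) or 3 (0.0947).

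The cytosolic chaperonin TRiC and its feeder prefoldin, which fold actin and tubulin, had 8 of 14 genes lower as deposited (beside 43.4% of all tested genes), with a median of -0.36, the same as for all tested genes. After median-of-ratios rescaling none was called in limma or voom, and 1 was higher at an unadjusted p under 0.05. The largest differences were those of Cct3 (100.1 ± 13.98 to 66.2 ± 5.89 FPKM, -0.58), Cct6a (-0.55), Cct7 (-0.52) and Pfdn4 (-0.47). Pfdn4 also lost its call after quantile normalization (adjusted p 0.247) and without S100A4-negative replicate 3 (adjusted p 0.0837) or S100A4-positive replicates 1 (0.0618) or 2 (0.0549). Of 17 other mitochondrial chaperones and proteases 10 were lower and 1 higher as deposited (beside 43.4% and 19.0% of all tested genes), with a median of -0.42. After median-of-ratios rescaling 3 were higher and 0 lower in limma and in voom (beside 27.3% and 24.8% of all tested genes in limma), and at an unadjusted p under 0.05 in limma 3 were higher and 2 lower. Trap1, the mitochondrial HSP90 (77.8 ± 8.84 to 51.8 ± 5.81 FPKM), Clpb, a disaggregase (14.1 ± 0.246 to 8.39 ± 0.982 FPKM), and Grpel2, an exchange factor of mitochondrial HSP70 (13.2 ± 1.79 to 7.93 ± 0.724 FPKM), were lower as deposited, and lost the call after median-of-ratios rescaling (adjusted p 0.168, 0.0549 and 0.0720). Htra2, a serine protease of the space between the mitochondrial membranes, rose from 14.2 ± 2.97 to 42.4 ± 6.98 FPKM (1.52, limma adjusted p 0.000482).

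A pair of comparison lists was read beside these. Of 19 chaperones of the endoplasmic reticulum 4 were higher and 4 lower (beside 19.0% and 43.4% of all tested genes), with a median of 0.015, and after median-of-ratios rescaling 9 were higher and 2 lower (beside 27.3% and 24.8%). Pdia4, a disulfide isomerase (117 ± 20.02 to 47.8 ± 10.8 FPKM), and Creld2 (51.7 ± 10.8 to 24.5 ± 2.66 FPKM) fell, while Hspa13, a microsomal HSP70 relative (9.88 ± 0.635 to 17.5 ± 3.59 FPKM), and Dnajc10, a disulfide reductase with a J domain (36.0 ± 2.99 to 58.0 ± 3.88 FPKM), rose. Of 17 tested immediate-early genes known to be induced by tissue dissociation, 10 were higher and 1 lower (beside 19.0% and 43.4% of all tested genes), with a median of 0.75. Atf3 rose from 52.6 ± 13.3 to 264 ± 40.7 FPKM (2.33), Ier3 from 14.8 ± 2.67 to 78.3 ± 17.03 FPKM (2.32), Dusp1 from 164 ± 25.8 to 516 ± 140 FPKM (1.63) and Zfp36 from 140 ± 11.6 to 426 ± 118 FPKM (1.57). The tested genes of this list that were not higher were Fos, Fosb, Jun, Junb, Egr1, Egr3 and Btg2, named outside the rule. As deposited 6 of them did not pass and 1 was lower. The part of dissociation in the difference of Hspa1a and Hspa1b was not tested.

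**Figure D4:**
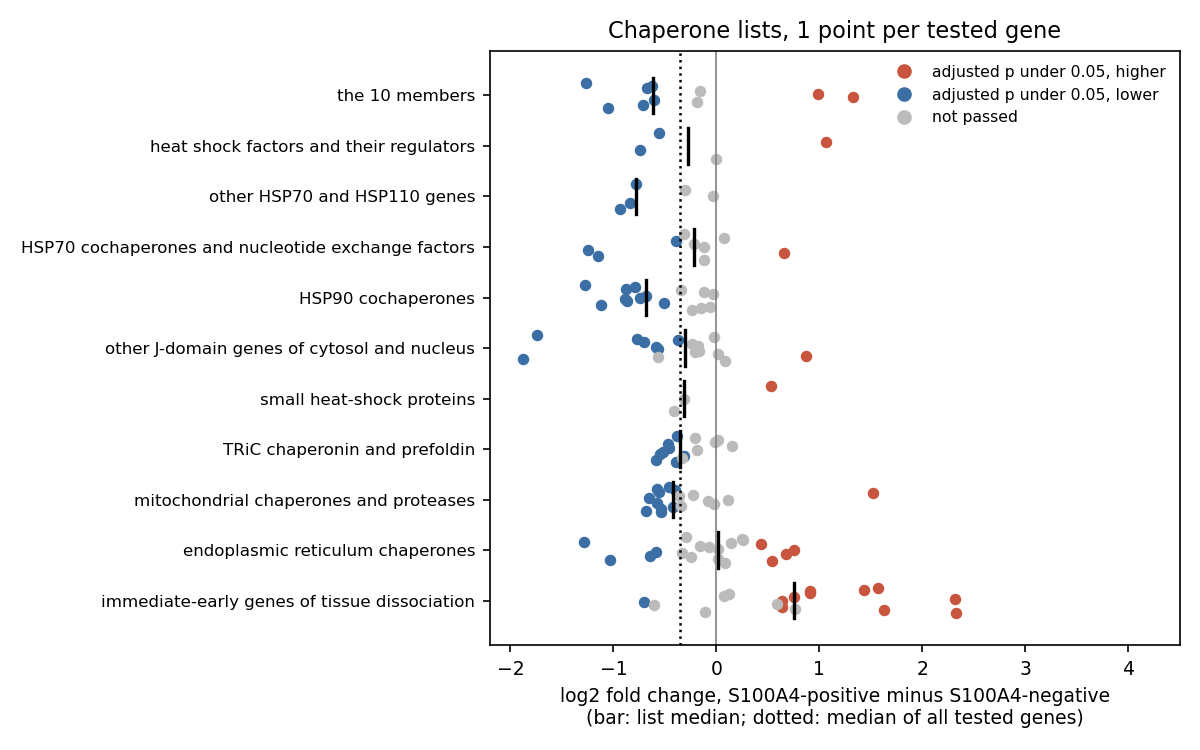
Log2 fold change, S100A4-positive minus S100A4-negative (horizontal axis, log2(FPKM + 1)), of each tested gene in the lists named on the vertical axis; colours give the limma call, short bars the list median and the dotted line the median of all tested genes, -0.36. The 10 chaperone genes and the HSP90 cochaperones have medians left of the dotted line (-0.62 and -0.68). So do the other HSP70 and HSP110 genes (-0.78) and the mitochondrial chaperones and proteases (-0.42). The endoplasmic reticulum and immediate-early lists lie furthest right of it (0.015 and 0.75).

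For the genes with the largest rise and the largest fall among the 10, the tested genes with the most similar profile over the 6 libraries were listed, as a description: with 2 groups that differ, many genes correlate highly. The log2(FPKM + 1) values of Hspa1a correlated closely with those of B2m, the light chain of MHC class I (Pearson r 0.999), Ifrd1 (0.996) and Lrmda (0.996). Those of Hsph1 did so with Ddx50, an RNA helicase gene (0.999), Ckap2, a gene of the mitotic spindle (0.999), Dis3, the exosome nuclease (0.999), and Zfp672 (0.999). All 6 libraries enter each coefficient, and they share the group difference. Lrmda averaged 0.254 FPKM in S100A4-negative and 3.56 FPKM in S100A4-positive libraries. Like Hspa1a, it passed the filter only through the S100A4-positive ones.

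In the comparison that the authors deposited (the authors' deposited table), 11.6% of 28627 genes were called higher and 7.35% lower in S100A4-positive cells, and 3 of the 10 chaperone genes were called. These were Hspa1a (log2 fold change 2.65, adjusted p 5.11e-07), Hspa1b (1.70, adjusted p 0.00477) and Hsph1 (-0.94, adjusted p 0.00584) in the authors' deposited table. Dnaja1 was at -0.67 and just missed (adjusted p 0.0619) in the authors' deposited table. The other 6 were not called in the authors' deposited table: Dnajb1 at -0.36, Hspd1 at -0.31, Hspe1 at -0.22, Hsp90ab1 at -0.21, Hsp90aa1 at 0.20 and Hspa8 at 0.24. The size factors implied by that table were 1.13, 1.16 and 1.32 for the S100A4-negative and 0.888, 0.738 and 0.917 for the S100A4-positive libraries.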

How the data were processed

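Spleen CD8+ effector memory T cells were compared by RNA-seq, 3 S100A4-negative and 3 S100A4-positive libraries, with columns matched to samples by name. Per the submitters' processing notes, HISAT2 2.1.0, Cufflinks, Cuffnorm and build mm10 were used. Which tool counted reads, and whether by strand, is not given in the sources used here. The authors deposited FPKM for 55951 genes. The authors' deposited comparison gives, per the file headers, each gene's mean normalised read count per group (a signal), log2 fold change, p-value and adjusted p-value, from a test the headers do not name.

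Whole reads were recovered from the FPKM and the authors' mean normalised read counts per group. Of 135018 values above 0, 100% lay within 0.02 reads of a whole number. Genes with a mean of at least 1 FPKM (13241) were tested on log2(FPKM + 1) in limma 3.58.1 (R 4.3.3), using a prior variance with a trend and Benjamini-Hochberg adjustment over all tested genes; calls have an adjusted p under 0.05. At an unadjusted p under 0.05 there were 8869 genes. The test was checked on simulated data with known changes. Of 65 genes changed 1.5-fold 21.5% were recovered, of 66 changed 2-fold 81.8%, and of 64 changed 4-fold 100%, with 10 false calls. The changes went up or down at random, so a shift of the median gene as in these data was not simulated. Positions and transcripts are from GENCODE M21 (GRCm38). Python 3.11.15, numpy 2.4.6, pandas 2.3.3 and matplotlib 3.10.9 were used.

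The 10 genes and the gene lists were chosen with earlier results of these data known. All 10 are described. From each further list up to 4 called genes with the largest difference are named, from marker lists genes of highest FPKM, and for 2 of the 10 genes the 4 most correlated genes, of which 1 is not reported here. Pseudogenes, Gm20481 and Smu1 are named because they share sequence or position. Alternatives were another pseudocount, filters, scalings, no trend, array weights, a replicate block, voom on recovered reads and leaving out each library. Summing Hspa1a and Hspa1b, and ratios of reads per longest transcript, were added after seeing the data.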

Additional observations from a re-analysis of the deposited data

How the results depend on the processing

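Of the alternatives for the 10 chaperone genes, 136 gave the same direction and side of the threshold, 20 the same direction without the call, and 4 the other direction. Those 4 were Hspa8 (0.22 after median-of-ratios rescaling and 0.22 in voom with median-of-ratios size factors) and Hsp90aa1 (0.19 and 0.19), neither past the threshold. The count of 2 higher genes was 0 at a mean of at least 5 FPKM, a filter that removes both Hspa1a and Hspa1b. The count of 6 lower genes was 3 after median-of-ratios rescaling and 3 in voom with median-of-ratios size factors. In the wider system the 5 higher genes became 12 and 12, and the 42 lower genes 16 and 16, under these same settings. Leaving out each library gave 2 to 2 higher and 4 to 6 lower chaperone genes, and 3 to 4 higher and 30 to 37 lower genes in the wider system. The differences between groups in log2 ratio ranged from 1.56 to 1.88 (inducible over constitutive HSP70) and 0.36 to 0.46 (Hsp90aa1 over Hsp90ab1). For the other ratios they ranged from 0.27 to 0.38 (Dnajb1 over Dnaja1) and -0.28 to 0.12 (Hspd1 over Hspe1). The last turned positive without S100A4-negative replicate 1 (0.015), S100A4-positive replicate 2 (0.023) and S100A4-positive replicate 3 (0.12). The cause of these changes was not tested. Of the other named genes, 572 alternatives kept direction and side of the threshold and 48 lost the call. The libraries share only a replicate number: the deviations of same-numbered libraries correlated at 0.376, 0.083 and 0.366, and S100A4-positive replicate 2 correlated best with S100A4-negative replicate 3 (0.146). With the replicate block 2 of the 10 genes were higher and 6 lower. Over all genes 2669 were higher and 6188 lower with the block, beside 2512 and 5741 without it. The difference between groups in the log2 ratio of inducible to constitutive HSP70 was 1.67 with the block. The wider system then had 4 higher and 46 lower genes. Depth limits Hspa1a, with 23 to 45 reads per S100A4-negative library.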
